A study of Homo sapiens with 60 samples.

Results

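ATF4 and the amino acid response genes are 38 protein-coding genes that code for ATF4 itself, other transcription factors that work with it, stress effectors, amino acid and one-carbon enzymes, amino acid transporters, tRNA synthetases and a tRNA export factor. They were taken by symbol from an expected-count table of 60675 genes, in which 38 of 38 were found, and 38 of 38 passed the filter on low counts that left 17256 genes for testing.

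The cells were A549, an established human lung adenocarcinoma line, exposed for 24 h to dried hot-water extracts used in Korean herbal medicine, and their RNA was sequenced in 60 libraries. Vehicle (DMSO, 0.1% in the sample labels and 2% in the description of the series) had 3 libraries. Saposhnikoviae Radix and Menthae Herba, which are single herbs, and the 4 mixtures Guibi-tang, Saengmaek-san, Okbyeongpung-san and Soyo-san had 3 libraries each at 500, 100 and 20 µg/mL, and the mixture Soshiho-tang had 1 library at each of these doses. A dose is given below by its number alone. The description of the series also says that extracts with a 20% inhibitory concentration under 500 were given at that lower concentration and its dilutions, while the labels print 500, 100 and 20 for each extract. No label tells if the replicate libraries stem from separate cultures, so a p-value here measures the spread between these libraries alone.

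ATF4 is a leucine zipper transcription factor whose messenger RNA is translated better when the initiation factor eIF2 is phosphorylated, for example when cells lack amino acids or when unfolded proteins collect in the endoplasmic reticulum. It binds DNA as a dimer with C/EBP proteins and raises genes that make, import and load amino acids, and genes such as DDIT3, TRIB3 and CHAC1 that limit the response or accompany cell death. Much of the control of ATF4 is on translation, which RNA sequencing does not read. In lung cancer cells the serine pathway enzymes PHGDH, PSAT1 and PSPH are among its known targets.

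The DNA element that ATF4 and C/EBP dimers bind is written here as TGATGNAA, searched on both strands. In RefSeq promoter windows on GRCh38.p14, which run from 250 bases before to 50 bases after a gene's start, 33 of the 38 genes had an entry and ALDH1L2, EIF4EBP1, NUPR1, PSPH and SHMT2 had none. The element stood in a window of 11 of these 33 genes (33.3%, exact 95% interval 18.0 to 51.8%), and in 4.46% of 27305 genes with a window. The 11 genes were AARS1, ASNS, ATF3, CEBPG, CHAC1, GARS1, JDP2, SLC1A4, SLC1A5, SLC3A2 and SLC7A1. A match describes letters in a window and is not evidence of binding. The sequences below are those of 6 of these genes that the results return to. Capitals mark the element as it reads 5′ to 3′ on the gene's own strand, so TTGCATCA is the element on the opposite strand.
ASNS, asparagine synthetase, minus strand, chr7:97872445-97872500, element at position -68 from the start: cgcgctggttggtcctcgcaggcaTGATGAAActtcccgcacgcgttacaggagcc
SLC1A4, a carrier of alanine, serine and cysteine, plus strand, chr2:64989368-64989399, position -7: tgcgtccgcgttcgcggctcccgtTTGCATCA
AARS1, alanyl-tRNA synthetase, minus strand, chr16:70289662-70289717, position -187: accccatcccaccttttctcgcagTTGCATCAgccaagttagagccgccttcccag
CHAC1, a glutathione-degrading enzyme, plus strand, chr15:40953238-40953293, position -209: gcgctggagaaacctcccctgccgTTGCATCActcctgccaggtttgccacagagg
CEBPG, a C/EBP partner of ATF4, plus strand, chr19:33374047-33374102, position -42: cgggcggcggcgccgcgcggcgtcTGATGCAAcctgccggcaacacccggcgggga
ATF3, a stress-induced factor of the same family, plus strand, chr1:212565192-212565247, position -191: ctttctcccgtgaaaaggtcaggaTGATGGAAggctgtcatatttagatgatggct

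The libraries held 18330592 to 35308791 counts. Mitochondrially encoded genes held 10.7 to 13.9% of the counts in libraries 1 to 31, by library order, and 12.9 to 22.2% in the 29 later ones. The order is that of the library names, as no label gives an order of preparation or sequencing. The cut after library 31 is where the mitochondrial share itself splits best, so the step is not a labelled batch. Vehicle and both herbs lay before this step, Soyo-san, Okbyeongpung-san and Soshiho-tang after it, and Saengmaek-san and Guibi-tang on both sides, with every replicate 3 after it. In a fit with a term for the step, 15 of the 38 genes were lower and 9 higher after it, where 22.2% and 21.5% of all genes were, among them SLC3A2 (-0.32), MTHFD2 (-0.29), DDIT4 (-0.29), ATF4 (0.18) and NUPR1 (0.41), on the log2 scale. For Soyo-san and Okbyeongpung-san against vehicle the step and the treatment cannot be told apart, except through that term. Soshiho-tang entered no fit, so in its ratios to vehicle the step and the treatment cannot be told apart. The term rests on the Saengmaek-san and Guibi-tang groups, the only ones with libraries on both sides. The 9 epithelial and A549 markers summed to 13976 to 17807 CPM in each library, where CPM are counts scaled to a library total of 1000000. The 5 leukocyte markers summed to 8.16 to 20.2 CPM, nearly all of it CD68, with CD3E at 0 in 60 of 60 libraries. The 4 fibroblast markers summed to 26.0 to 41.1 CPM, nearly all of it COL1A1, and the 3 endothelial markers to 0.0398 to 0.400 CPM.

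Against vehicle the 6 replicated extracts moved different numbers of these genes, and the changes were small. A gene was called where edgeR's quasi-likelihood test gave an adjusted p (Benjamini-Hochberg over 17256 genes) under 0.05. At 500, 20 of the 38 genes were called in at least 1 extract, with 34 calls in 228 tests, and 18 were called in no comparison at any dose. Menthae Herba had the most calls: 9 genes rose and 1 fell, where 3.34% of all genes rose and 3.43% fell. In Guibi-tang 5 rose and 3 fell (2.63% and 1.78% of all genes), and in Soyo-san 2 rose and 5 fell (3.11% and 2.93%). In Saengmaek-san 1 rose and 3 fell (0.354% and 0.261%), in Saposhnikoviae Radix 1 rose and 1 fell (0.921% and 0.643%), and in Okbyeongpung-san 0 rose and 3 fell (1.96% and 1.43%). The median log2 fold change of the 38 genes was 0.08 in Menthae Herba, 0.01 in Saposhnikoviae Radix, -0.04 in Saengmaek-san, -0.05 in Guibi-tang, 0.00 in Soyo-san and -0.03 in Okbyeongpung-san, beside medians of all genes between -0.00 and 0.01. Left-out libraries moved these counts: the Guibi-tang count was 5 without its 500 replicate 1, its 500 replicate 2 or vehicle replicate 1, and the Soyo-san count was 3 without its 500 replicate 2 or vehicle replicate 1. Saengmaek-san had 1 call without its 500 replicate 2, its 500 replicate 3 or vehicle replicate 2, 2 without vehicle replicate 3 and 0 without vehicle replicate 1. Saposhnikoviae Radix had 0 without vehicle replicate 1 and 1 without vehicle replicate 2 or any 1 of its own 500 libraries. With the step term 17 genes were called in Menthae Herba (12.2% of all genes), 8 in Saposhnikoviae Radix (5.80%), 7 in Saengmaek-san (2.18%), 16 in Guibi-tang (10.0%), 16 in Soyo-san (11.7%) and 14 in Okbyeongpung-san (12.5%). All 18 comparisons with vehicle share the same 3 vehicle libraries. In bulk RNA, a change in the number of cells that carry a transcript and a change of its amount per cell cannot be told apart.

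**Figure D1:**
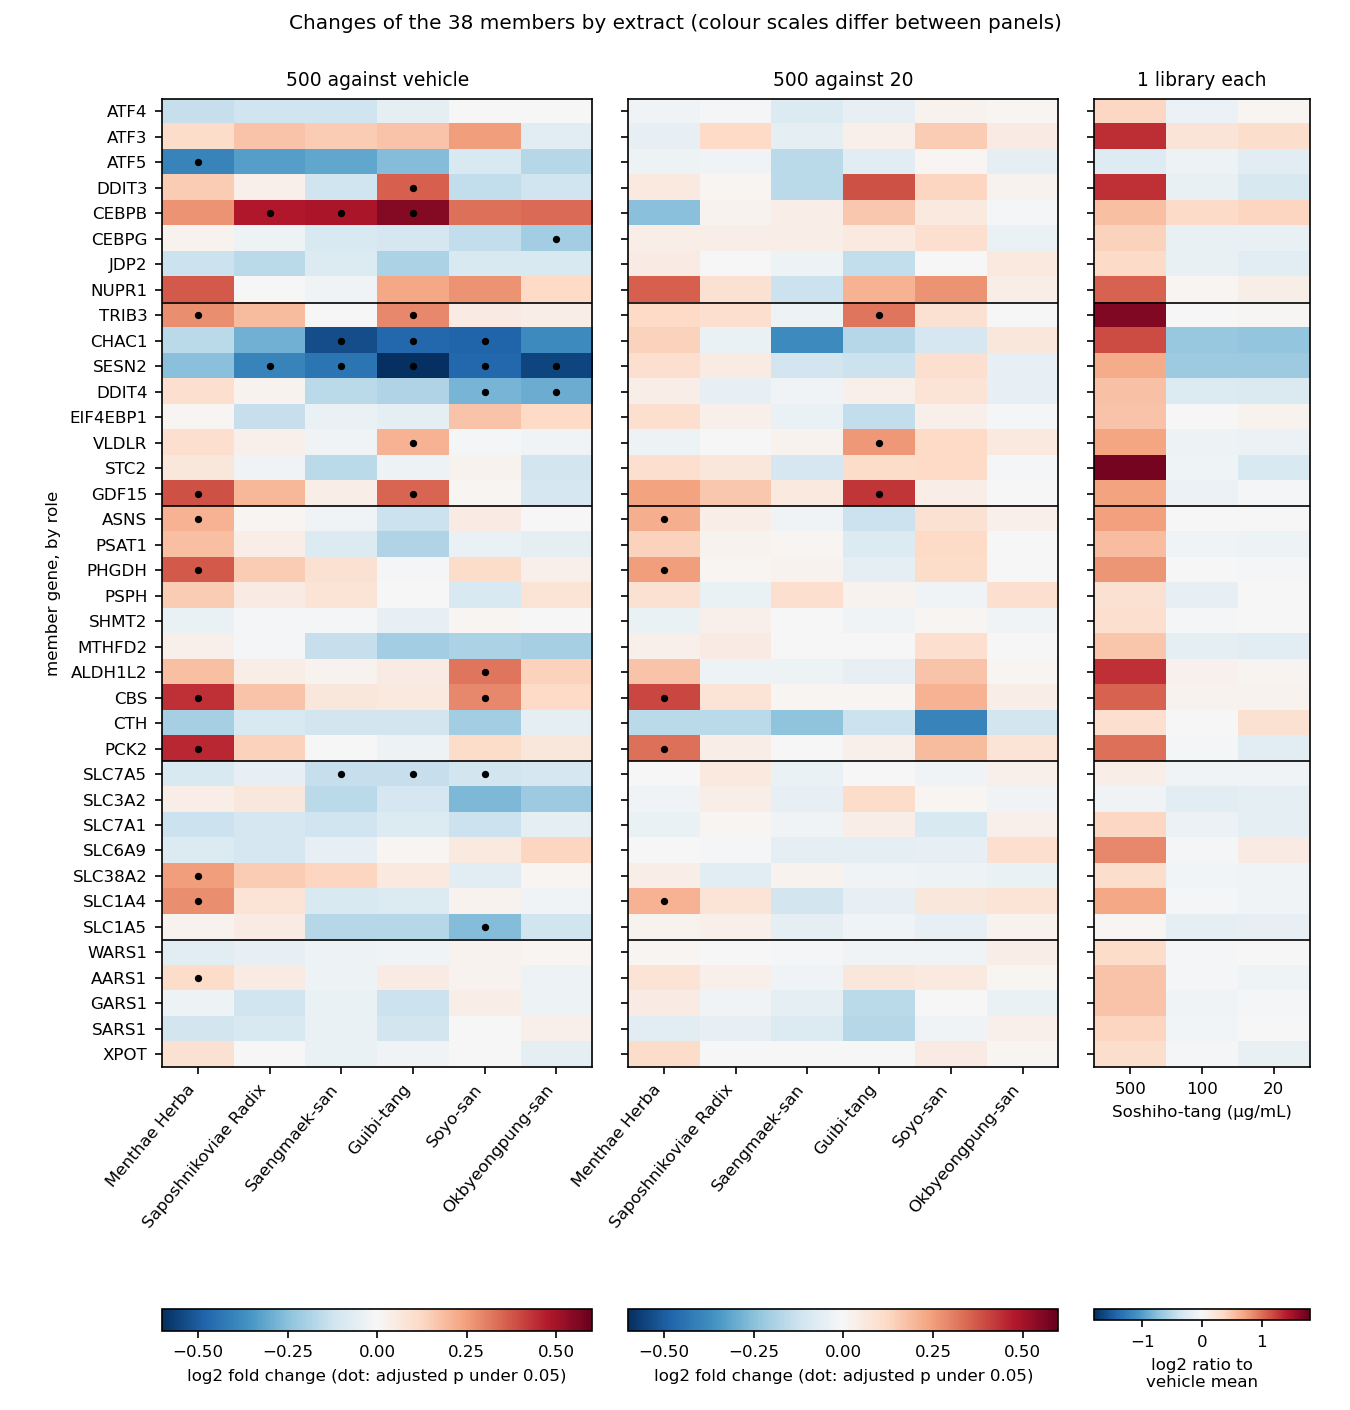
Log2 fold change of the 38 genes (rows, grouped by role) in the 6 replicated extracts at 500 against vehicle and against their own 20 group, with the log2 CPM ratio to the vehicle mean for the single Soshiho-tang libraries on a wider colour scale. Dots mark calls by edgeR at an adjusted p under 0.05, and the Soshiho-tang columns carry no test. Calls against 20 are found in Menthae Herba (5) and Guibi-tang (3).

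At the lower doses the calls were fewer. At 100 they numbered 1 in Menthae Herba (0.974% of all genes called), 3 in Saposhnikoviae Radix (0.666%), 0 in Saengmaek-san (0.666%), 2 in Guibi-tang (1.41%), 2 in Soyo-san (1.77%) and 4 in Okbyeongpung-san (1.37%). The Saengmaek-san count of 0 stood beside 4 genes at an unadjusted p under 0.05 and 1 call by DESeq2. At 20 they numbered 1 (0.382%), 2 (0.991%), 1 (0.452%), 2 (1.35%), 3 (1.99%) and 1 (1.09%) in the same order. Of these 22 calls at 100 and 20, 7 were of SESN2 and 4 of CEBPB. Leaving out vehicle replicate 1, 2 or 3 took the 12 calls at 100 to 1, 2 and 6, and leaving out vehicle replicate 1 or 2 took the 10 calls at 20 to 4 and 5.

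The comparison of 500 with 20 inside an extract uses no vehicle library. Here Menthae Herba raised 5 of the 38 genes (0.898% of all genes rose) and Guibi-tang raised 3 (0.748%), with 0 lower in either. The other 4 extracts had 0 calls by edgeR. In Saposhnikoviae Radix 0.0811% of all genes were called and 1 of the 38 had an unadjusted p under 0.05, in Saengmaek-san 0% and 2, in Soyo-san 0.614% and 6, and in Okbyeongpung-san 0.0985% and 0. DESeq2 also called 0 in each of these 4 extracts. The Menthae Herba count dropped to 3 without 20 replicate 3 or without 500 replicate 2, and the Guibi-tang count to 1 without 20 replicate 2.

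Among the transcription factors, ATF4 mRNA moved little. It was at 265, 273 and 259 CPM in vehicle and between 236 and 275 CPM in the 54 libraries of the replicated extracts. Of these 54, 39 lay below all 3 vehicle libraries and 1 above, and 17 of its 18 changes against vehicle were below 0. Its log2 fold changes against vehicle lay between -0.17 and 0.00, and 0 of 18 were called by edgeR, with 5 at an unadjusted p under 0.05 and 0 called by DESeq2. With the step term, however, ATF4 was called lower than vehicle at 500 in 6 of 6 extracts, where 2.18 to 12.5% of all genes were called. The change was -0.14 in Menthae Herba (adjusted p = 0.00414), -0.12 in Saposhnikoviae Radix (0.0199), -0.18 in Saengmaek-san (0.00183), -0.13 in Guibi-tang (0.0114), -0.18 in Soyo-san (0.00168) and -0.18 in Okbyeongpung-san (0.00117). The Menthae Herba and Saposhnikoviae Radix libraries lie on the same side of the step as vehicle, and their 500 libraries, at 244 to 253 CPM, were all below the vehicle libraries. All these comparisons share the same 3 vehicle libraries. In the fit without the step term, ATF4 differed between 500 and 20 by -0.08 to 0.02, with 0 calls. ATF3 (log2 fold changes against vehicle of -0.12 to 0.25), JDP2 (-0.19 to -0.04), which dimerises with AP-1 factors, and the stress-induced chromatin protein NUPR1 (-0.09 to 0.37) were called in 0 of 24 comparisons by edgeR.

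ATF5, a related factor that is also translated better under stress, was at 53.5, 53.4 and 56.1 CPM in vehicle. All 54 libraries of the replicated extracts were lower, between 39.2 and 52.9 CPM. It was called in 3 of 18 comparisons with vehicle: Menthae Herba at 500 (39.2, 44.3 and 43.9 CPM, log2 fold change -0.40 ± 0.0937 SE, adjusted p = 0.00458) and Menthae Herba and Saposhnikoviae Radix at 100 (-0.37 and -0.38). The first of these calls was lost when Menthae Herba 500 replicate 1 was left out (adjusted p = 0.0583), and both calls at 100 were lost without any 1 of their 6 libraries (adjusted p of 0.0689 to 0.187 and 0.0705 to 0.225). The 500 and 20 groups of each extract differed by -0.16 to 0.01, with 0 calls.

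CEBPB, a C/EBP partner of ATF4 that also serves inflammation and differentiation, went the other way. Vehicle held 49.5, 63.4 and 67.9 CPM, and replicate 1 was the lowest of all 60 libraries. At 500, Guibi-tang held 90.7, 87.3 and 89.9 CPM (0.55 ± 0.107, adjusted p = 6.75e-04), Saengmaek-san 98.4, 82.9 and 72.0 CPM (0.49 ± 0.107, adjusted p = 0.0166) and Saposhnikoviae Radix 79.5, 87.6 and 93.6 CPM (0.48 ± 0.107, adjusted p = 0.00834), each without overlap with vehicle. Its log2 fold change was above 0 in 18 of 18 comparisons with vehicle, which share the same 3 vehicle libraries. Of these 7 were called, but 0 of 6 between 500 and 20. Without vehicle replicate 1 the Saengmaek-san and Saposhnikoviae Radix changes were 0.36 (adjusted p = 0.189) and 0.35 (adjusted p = 0.131). The Saengmaek-san call was also lost without its 500 replicate 1 (adjusted p = 0.124) and the Saposhnikoviae Radix call without its 500 replicate 3 (adjusted p = 0.0819). The Guibi-tang call held in 6 of 6 such fits.

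DDIT3, the death-associated factor also known as CHOP, was called in Guibi-tang at 500 alone. It was at 9.83, 10.0 and 7.76 CPM there and at 6.92, 6.71 and 7.68 CPM in vehicle (0.36 ± 0.103, adjusted p = 0.0323). The groups did not overlap, but the call was lost without 500 replicate 1 (adjusted p = 0.131), 500 replicate 2 (0.158), vehicle replicate 1 (0.114) or vehicle replicate 2 (0.163). CEBPG, a C/EBP protein without a transactivation domain of its own, fell in Okbyeongpung-san at 500 from 102 ± 0.218 to 86.7 ± 2.54 CPM (SD, n = 3; -0.21 ± 0.0477 SE, edgeR adjusted p = 0.00519). Under the step term this change was -0.07 (adjusted p = 0.214).

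TRIB3, a pseudokinase that ATF4 and DDIT3 induce and that restrains both, rose in Menthae Herba and Guibi-tang at 500. Vehicle held 58.6, 58.9 and 60.4 CPM, Menthae Herba at 500 held 76.9, 73.1 and 72.8 CPM, and Guibi-tang at 500 held 79.5, 74.1 and 67.6 CPM. All 6 treated libraries were above all 3 vehicle libraries. The log2 fold change was 0.28 ± 0.0609 (adjusted p = 0.00166) in Menthae Herba and 0.29 ± 0.0610 (adjusted p = 0.00134) in Guibi-tang, and both calls held when any 1 library was left out. Against its own 20 group (63.5, 48.4 and 57.3 CPM), Guibi-tang at 500 was higher by 0.32 ± 0.0618 (adjusted p = 0.00199). Without 20 replicate 2, which lies after the step and had the lowest value, this was 0.25 (adjusted p = 0.0732). Menthae Herba at 500 against 20 (70.6, 65.3 and 66.8 CPM) gave 0.12 (adjusted p = 0.469).

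In the other groups TRIB3 was not called by edgeR, although 39 of the 54 libraries of the replicated extracts lay above all vehicle libraries. Group means at 500 were 69.9 ± 0.996 CPM in Saposhnikoviae Radix, 59.1 ± 6.11 in Saengmaek-san, 60.0 ± 6.84 in Soyo-san and 60.4 ± 0.341 in Okbyeongpung-san (SD, n = 3), beside 59.3 ± 0.966 in vehicle. The Saposhnikoviae Radix libraries at 500 (69.8, 70.9 and 68.9 CPM) all lay above vehicle (0.19, adjusted p = 0.102), and from the libraries that precede the step alone the same change was called (0.19, adjusted p = 0.00154). At 100 and 20 the group means ran from 55.9 to 67.6 CPM, and every library of Menthae Herba and Saposhnikoviae Radix at these doses was above vehicle.

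GDF15, a secreted cytokine of cell stress, followed the same 2 extracts. It was at 18.8, 18.6 and 18.7 CPM in vehicle, at 26.9, 23.2 and 25.2 CPM in Menthae Herba at 500 (0.38 ± 0.0774, adjusted p = 8.56e-04) and at 24.5, 26.3 and 21.5 CPM in Guibi-tang at 500 (0.35 ± 0.0778, adjusted p = 0.00372). Neither group overlapped vehicle. Against 20 (18.6, 16.0 and 16.3 CPM) the Guibi-tang difference was 0.43 ± 0.0801 (adjusted p = 8.20e-04). In Menthae Herba, where 20 held 22.9, 20.5 and 19.5 CPM, it was 0.24 (adjusted p = 0.109). VLDLR, the very low density lipoprotein receptor, was called in Guibi-tang, against vehicle (0.21, adjusted p = 0.0233) and against 20 (0.26, adjusted p = 0.00987). Its Guibi-tang 500 libraries held 32.7, 32.5 and 25.9 CPM, the 20 libraries 26.3, 21.9 and 24.0 CPM and vehicle 26.4, 26.0 and 25.4 CPM, so replicate 3 fell inside both other groups. The VLDLR call against vehicle was lost without any 1 of those 6 libraries but 500 replicate 3 (adjusted p of 0.0528 to 0.169). The VLDLR call against 20 was lost without 20 replicate 2 (0.118), 20 replicate 3 (0.0692), 500 replicate 1 (0.152) or 500 replicate 2 (0.111). Of the Guibi-tang libraries, 2 at 500 and 1 at 20 precede the step, and TRIB3, GDF15 and VLDLR were lower after it (-0.14, -0.15 and -0.12). Fitted with the step term, the 500-against-20 changes in Guibi-tang were 0.27 (adjusted p = 0.00103), 0.38 (9.51e-04) and 0.22 (0.0130). Of the epithelial and A549 markers, KRT8 (-0.29), KRT18 (-0.23), KRT19 (-0.26) and ALDH1A1 (-0.16) fell in Guibi-tang at 500 against vehicle, and their part in these changes was not tested.

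**Figure D2:**
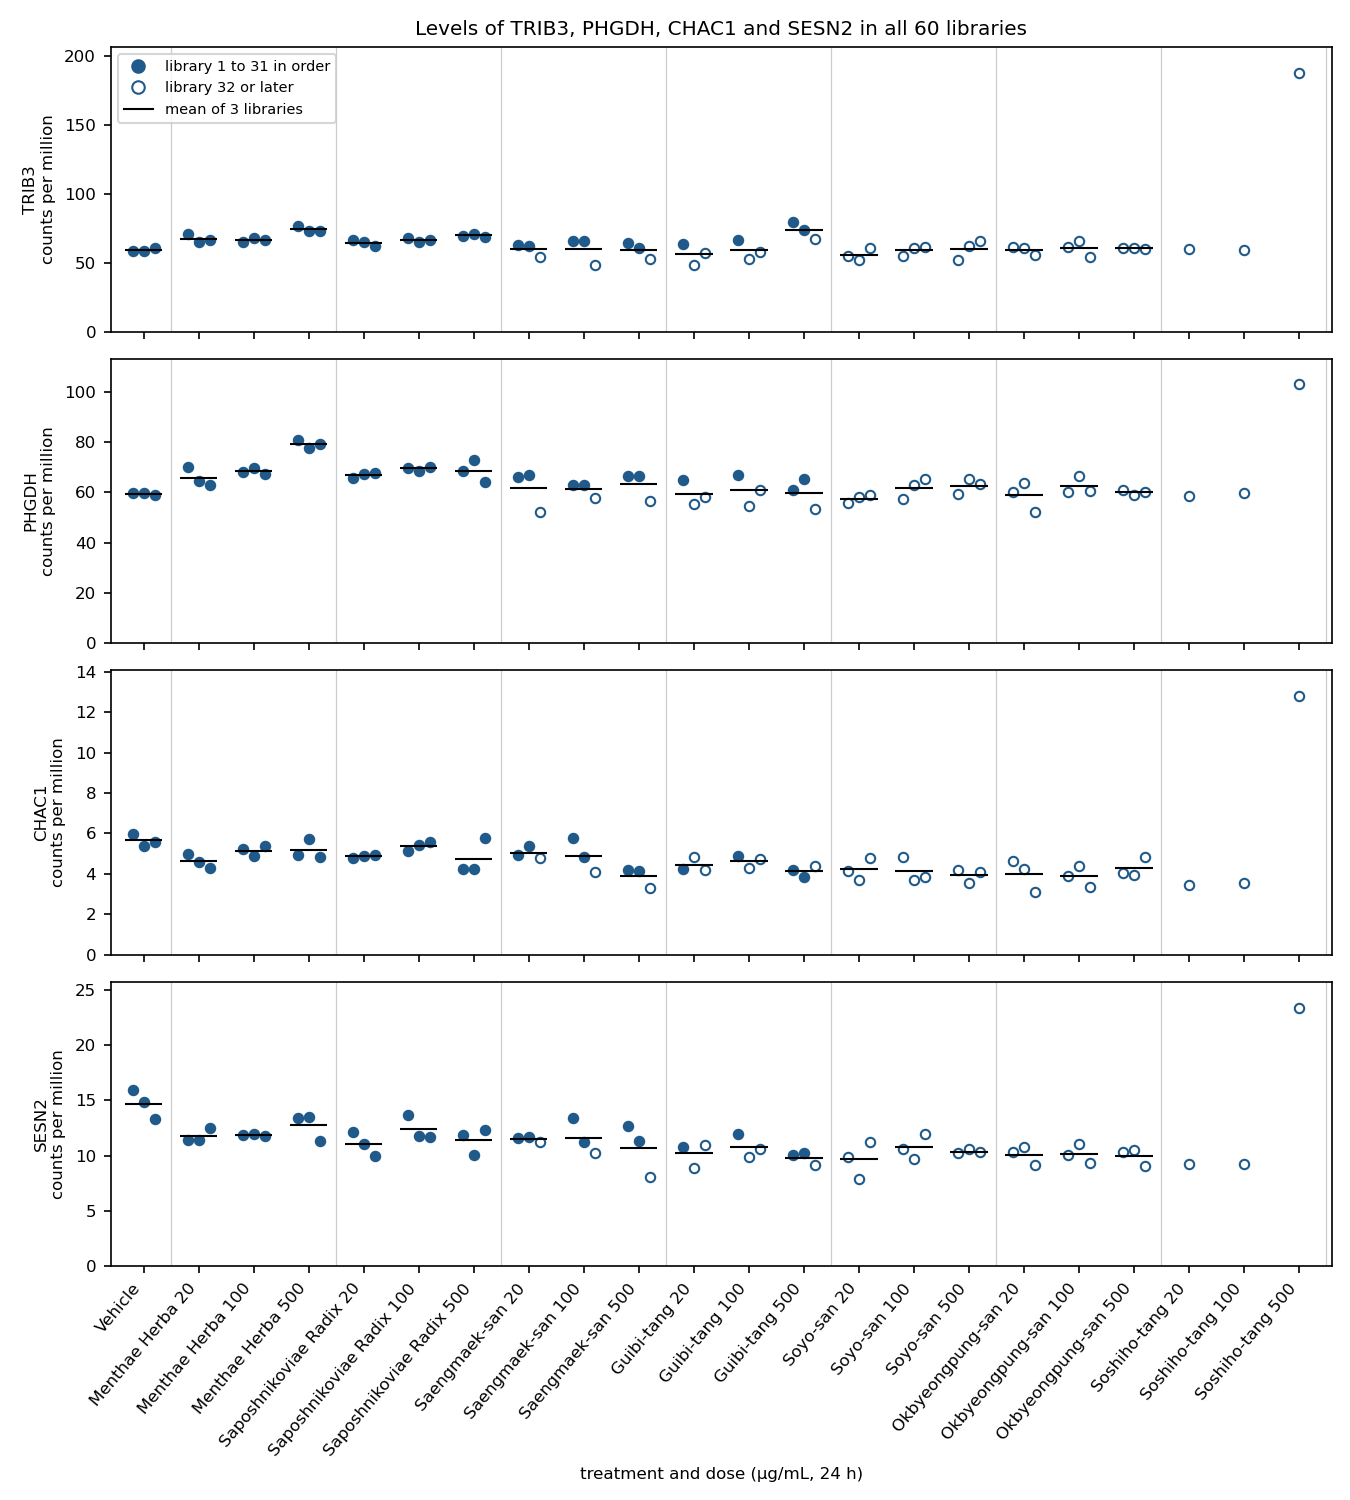
CPM of TRIB3, PHGDH, CHAC1 and SESN2 in all 60 libraries by group, 1 point a library and a line at the mean of 3. Filled points are libraries that precede the step and open points those after it. TRIB3 reached 188 CPM and PHGDH 103 CPM in the Soshiho-tang 500 library, and SESN2 was at 13.3 to 15.9 CPM in vehicle.

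SESN2 is a leucine sensor that holds back the growth kinase complex mTORC1, and CHAC1 breaks down glutathione. Both had log2 fold changes below 0 in 18 of 18 comparisons of the replicated extracts with vehicle. Of these, 12 were called for SESN2 and 4 for CHAC1. All 18 share the same 3 vehicle libraries, and ATF5, JDP2, SLC7A5 and SLC7A1 were also below 0 in 18 of 18. The share of all genes with this trait was not counted. SESN2 was at 15.9, 14.9 and 13.3 CPM in vehicle, and 50 of 54 libraries of the replicated extracts lay below all 3. At 500 it was at 10.1, 10.2 and 9.19 CPM in Guibi-tang (-0.60 ± 0.101, adjusted p = 7.31e-05), at 10.3, 10.5 and 9.06 CPM in Okbyeongpung-san (-0.55 ± 0.0994, adjusted p = 4.52e-04) and at 10.2, 10.6 and 10.3 CPM in Soyo-san (-0.47 ± 0.0984, adjusted p = 0.00182). These 3 calls held when any 1 library was left out and with the step term (-0.57, -0.45 and -0.37). Saengmaek-san (12.7, 11.3 and 8.09 CPM) gave -0.44 (adjusted p = 0.0166) and Saposhnikoviae Radix (11.9, 10.1 and 12.3 CPM) gave -0.40 (adjusted p = 0.0190). The Saengmaek-san call was lost without vehicle replicate 1 (0.109), vehicle replicate 2 (0.0934), 500 replicate 2 (0.0682) or 500 replicate 3 (0.177), and that of Saposhnikoviae Radix without vehicle replicate 1 (0.131), vehicle replicate 2 (0.102), 500 replicate 1 (0.0541) or 500 replicate 2 (0.158). Menthae Herba at 500 held 13.4, 13.5 and 11.3 CPM and was not called. The SESN2 calls included 4 of 6 at 20, of which the Soyo-san and Okbyeongpung-san calls held without any 1 library, and 0 of 6 were made between 500 and 20, where it differed by -0.13 to 0.10.

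CHAC1 was at 5.99, 5.38 and 5.59 CPM in vehicle and at 3.12 to 5.76 CPM in the 54 libraries of the replicated extracts. At 500 it was at 4.19, 4.13 and 3.29 CPM in Saengmaek-san (-0.53 ± 0.121, adjusted p = 0.0224), at 4.19, 3.56 and 4.08 CPM in Soyo-san (-0.48 ± 0.121, adjusted p = 0.0105) and at 4.19, 3.85 and 4.39 CPM in Guibi-tang (-0.47 ± 0.123, adjusted p = 0.0150). Those 9 libraries lay below all vehicle libraries. The other means at 500 were 5.17 ± 0.484 CPM in Menthae Herba, 4.75 ± 0.875 in Saposhnikoviae Radix and 4.27 ± 0.480 in Okbyeongpung-san (SD, n = 3), with 0 calls by edgeR. At the lower doses CHAC1 was called once, in Okbyeongpung-san at 100 (-0.52, adjusted p = 0.0166), a call lost without its 100 replicate 1 (0.0617) or 3 (0.168) or vehicle replicate 1 (0.0850) or 3 (0.0687). It was called between 500 and 20 in 0 of 6 extracts. The Guibi-tang call was lost without 500 replicate 1 (0.0502), 500 replicate 2 (0.144) or vehicle replicate 1 (0.0750), and the Soyo-san call without 500 replicate 2 (0.0905) or vehicle replicate 1 (0.0520). The Saengmaek-san call was lost without any 1 of its libraries but 500 replicate 1 (0.0546 to 0.114).

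The mTORC1 inhibitor DDIT4, also known as REDD1, fell in Soyo-san (-0.28, adjusted p = 0.0402) and Okbyeongpung-san (-0.30, adjusted p = 0.0420) at 500, from 183 ± 4.19 CPM in vehicle to 147 ± 10.9 and 147 ± 4.26 CPM (SD, n = 3). Both calls were lost without any 1 of their 6 libraries (0.0668 to 0.172 and 0.0703 to 0.153). DDIT4 was also lower after the step, and with the step term the changes were 0.00 (adjusted p = 0.983) and -0.01 (adjusted p = 0.932). The secreted glycoprotein STC2 (log2 fold changes against vehicle of -0.16 to 0.07) and the translation repressor EIF4EBP1 (-0.16 to 0.17) were called in 0 of 24 comparisons.

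Menthae Herba at 500 raised 4 of the 10 enzymes against vehicle and against 20 (3.34% and 0.898% of all genes rose). The median log2 fold change of the 10 was 0.18 and 0.15. PHGDH, which takes the first step from glycolysis into serine, was at 80.7, 77.7 and 79.4 CPM at 500, 68.1, 69.8 and 67.4 CPM at 100, 70.1, 64.5 and 62.9 CPM at 20 and 59.8, 59.7 and 59.1 CPM in vehicle. The 3 libraries at 500 were above every library of the lower doses and of vehicle. The log2 fold change was 0.37 ± 0.0515 against vehicle (adjusted p = 1.72e-06) and 0.25 ± 0.0518 against 20 (adjusted p = 0.00176). CBS, which joins homocysteine and serine into cystathionine, was at 32.6, 32.2 and 32.8 CPM at 500, 25.2, 26.8 and 26.3 CPM at 100, 24.8, 25.1 and 23.2 CPM at 20 and 22.7, 23.1 and 24.0 CPM in vehicle. It rose by 0.44 ± 0.0621 against vehicle (adjusted p = 2.05e-06) and by 0.40 ± 0.0631 against 20 (adjusted p = 2.57e-05). The genome holds a near-identical copy of CBS, CBSL, whose reads cannot always be told apart. The sum of both was 32.5 ± 0.325 CPM at 500 and 23.4 ± 0.565 CPM in vehicle.

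PCK2, the mitochondrial enzyme that makes phosphoenolpyruvate, was at 40.5, 41.1 and 43.4 CPM in Menthae Herba at 500, 35.0, 32.9 and 30.2 CPM at 20 and 29.4, 29.3 and 30.2 CPM in vehicle. It rose by 0.45 ± 0.0892 against vehicle (adjusted p = 6.40e-04). Its rise against 20 (0.33, adjusted p = 0.0328) was lost without any 1 of those libraries but 20 replicate 1 (0.0592 to 0.227), though the groups did not overlap. ASNS, which makes asparagine and whose window holds the element at -68, was at 109.9, 115 and 112 CPM at 500, 98.1, 91.8 and 96.2 CPM at 20 and 95.4, 95.7 and 91.7 CPM in vehicle. It rose by 0.21 ± 0.0439 against vehicle (adjusted p = 0.00103) and by 0.22 ± 0.0441 against 20 (adjusted p = 0.00105). The calls of PHGDH, CBS and ASNS, and that of PCK2 against vehicle, held when any 1 library was left out. With the step term Menthae Herba raised 7 of the 10 enzymes against vehicle, in a fit that called 12.2% of all genes, up or down. Of the cell type markers, COL1A1 also rose in Menthae Herba at 500 (0.39, edgeR adjusted p = 9.13e-06), while the other fibroblast markers were at or near 0 (COL1A2 at 0 in 47 and DCN in 49 of 60 libraries, PDGFRB at most 0.374 CPM), and the keratins KRT8 (-0.27), KRT18 (-0.29) and KRT19 (-0.27) fell. Their part in the enzyme changes was not tested.

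In Guibi-tang at 500, where TRIB3 and GDF15 rose, 0 of the 10 enzymes were called by edgeR and their median was -0.04. Of all genes, 2.63% rose and 1.78% fell in that group. PHGDH was at 61.0, 65.5 and 53.4 CPM there (-0.01, adjusted p = 0.967), ASNS at 92.0, 90.2 and 79.3 CPM, CBS at 24.2, 26.3 and 23.0 CPM and PCK2 at 31.9, 31.4 and 25.1 CPM. Each of these groups overlapped vehicle. Soyo-san at 500 raised CBS (25.5, 30.1 and 27.8 CPM, 0.29 ± 0.0624, adjusted p = 0.00196) and the mitochondrial folate enzyme ALDH1L2 (29.1, 27.5 and 28.2 CPM beside 23.4, 23.3 and 23.1 CPM in vehicle, 0.32 ± 0.0665, adjusted p = 0.00180). In the fit with the step term these were 0.25 (adjusted p = 0.0171) and 0.23 (adjusted p = 0.0350). PHGDH means at 500 in the other extracts were 68.6 ± 4.40 CPM in Saposhnikoviae Radix, 63.2 ± 5.73 in Saengmaek-san, 62.6 ± 2.95 in Soyo-san and 60.0 ± 1.06 in Okbyeongpung-san (SD, n = 3), beside 59.5 ± 0.366 in vehicle, with 0 calls. PHGDH was called once at a lower dose, in Saposhnikoviae Radix at 100 (69.6 ± 0.820 CPM, 0.21, edgeR adjusted p = 0.0369), a call lost without any 1 of its 6 libraries (0.0795 to 0.171). The other 5 enzymes were called in 0 of 24 comparisons each. They were PSAT1 and PSPH of the serine pathway, the folate enzymes SHMT2 and MTHFD2, and CTH, which splits cystathionine. In Menthae Herba at 500, PSAT1 was at 289, 295 and 304 CPM, beside 251 to 255 CPM in vehicle. PSPH was at 35.6, 35.2 and 35.6 CPM there, beside 29.9 to 32.6 CPM in vehicle. MTHFD2 was at 224, 223 and 232 CPM, beside 210.3 to 219 CPM in vehicle. In CPM these groups did not overlap vehicle, whereas those of SHMT2 and CTH did. In the fit, however, the highest log2 fold change of any extract at 500 against vehicle was 0.18 for PSAT1, 0.15 for PSPH and 0.03 for MTHFD2. The share of all genes without overlap was not counted. CTH had as few as 54 counts in a library, which limits its precision.

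Of the 7 transporters, 2 rose in Menthae Herba at 500, where 3.34% of all genes rose. SLC1A4 was at 39.7, 42.3 and 36.4 CPM, above 34.3, 33.6 and 33.3 CPM at 20 and 30.2, 31.1 and 33.4 CPM in vehicle, without overlap. It rose by 0.28 ± 0.0505 against vehicle (adjusted p = 1.44e-04) and by 0.21 ± 0.0511 against 20 (adjusted p = 0.0100). The second of these was lost without 20 replicate 3 (0.0652) or 500 replicate 2 (0.221). SLC38A2, a sodium-coupled carrier of neutral amino acids, rose from 252 ± 11.8 to 308 ± 8.92 CPM (SD, n = 3; 0.25, edgeR adjusted p = 0.00916), a call lost without 500 replicate 1 (0.0569) or vehicle replicate 2 (0.0800). At 20 it was already at 303, 295 and 291 CPM, and the 500 group did not differ from it beyond the spread.

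SLC7A5, the light chain of the leucine carrier LAT1, was lower than vehicle in 18 of 18 comparisons, which share the 3 vehicle libraries, and called in 5. It was at 3632, 3587 and 3620.1 CPM in vehicle. At 500 it was at 3425, 3446 and 3079 CPM in Guibi-tang (-0.14 ± 0.0340, adjusted p = 0.00686), 3520.1, 3411 and 2933 CPM in Saengmaek-san (-0.14, adjusted p = 0.0480) and 3019, 3315 and 3484 CPM in Soyo-san (-0.11, adjusted p = 0.0464). All 9 libraries were below vehicle, and the lowest of each of the first 2 extracts was replicate 3, after the step. The Guibi-tang call held without any 1 library. The Saengmaek-san call was lost without any 1 of its libraries but 500 replicate 1 (0.117 to 0.358) and the Soyo-san call without any 1 but 500 replicate 3 (0.102 to 0.276). In the fit with the step term, Soyo-san gave -0.05 (adjusted p = 0.436). The glutamine carrier SLC1A5 fell in Soyo-san at 500 (324, 367 and 380.1 CPM beside 438 ± 7.93 in vehicle, -0.26, edgeR adjusted p = 0.0375). That call was lost without any 1 library but 500 replicate 3 (0.0755 to 0.181), and the change was -0.00 with the step term. SLC3A2, the heavy chain of LAT1, the arginine carrier SLC7A1 and the glycine carrier SLC6A9 were called in 0 of 24 comparisons.

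Of the 4 tRNA synthetases and the tRNA exporter XPOT, 1 was called at 500. AARS1 rose in Menthae Herba from 289 ± 5.95 to 322 ± 2.75 CPM (SD, n = 3; 0.11 ± 0.0322 SE, edgeR adjusted p = 0.0258). The call was lost without vehicle replicate 1 (0.128), vehicle replicate 3 (0.0725), 500 replicate 1 (0.0831) or 500 replicate 2 (0.0789). WARS1, GARS1, SARS1 and XPOT were called in 0 of 24 comparisons, with log2 fold changes against vehicle of -0.13 to 0.09.

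The contrast between Menthae Herba, whose calls against 20 were 4 enzymes and a transporter, and Guibi-tang, whose calls against 20 were the effectors TRIB3, GDF15 and VLDLR, was tested as the difference between their 500-against-20 changes. This uses no vehicle library. In a joint test of the 6 extracts, ASNS (adjusted p = 0.0116) and CBS (adjusted p = 0.0310) differed among extracts, 2 of 38 genes where 0.985% of all genes were called. Of the 15 pairs of extracts, 3 had calls, all with the larger change in Menthae Herba. Against Guibi-tang (0.997% of all genes called) the change was larger for ASNS by 0.35 ± 0.0627 (adjusted p = 4.18e-04), CBS by 0.39 ± 0.0905 (0.0117) and PHGDH by 0.31 ± 0.0739 (0.0175). Against Saengmaek-san (0.568%) it was larger for CBS by 0.39 ± 0.0901 (0.0225) and SLC1A4 by 0.32 ± 0.0731 (0.0218), and against Okbyeongpung-san (0.806%) for CBS by 0.36 ± 0.0906 (0.0319). In the other 12 pairs 0 of the 38 genes were called by edgeR, with 0 to 7 a pair at an unadjusted p under 0.05. There 0.00580 to 0.296% of all genes were, for example 0.296% for Menthae Herba against Soyo-san and for Saengmaek-san against Guibi-tang, 0.0869% for Guibi-tang against Okbyeongpung-san and 0.0290% for Soyo-san against Okbyeongpung-san. The opposite difference was not called: TRIB3 (-0.20, adjusted p = 0.448), GDF15 (-0.20, 0.640), VLDLR (-0.29, 0.0835) and DDIT3 (-0.32, 0.508) were not shown to differ between Menthae Herba and Guibi-tang. The joint count of 2 became 0 without Menthae Herba 20 replicate 2 or Menthae Herba 500 replicate 2, and 1 without Guibi-tang 20 replicate 3, Menthae Herba 20 replicate 1, Menthae Herba 20 replicate 3 or Menthae Herba 500 replicate 1. With the step term the joint test called 5 genes (1.66% of all genes), which added PHGDH, PSAT1 and SLC1A4. Without the filter on low counts ASNS was not called (adjusted p = 0.0612) and CEBPB was (0.00604).

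**Figure D3:**
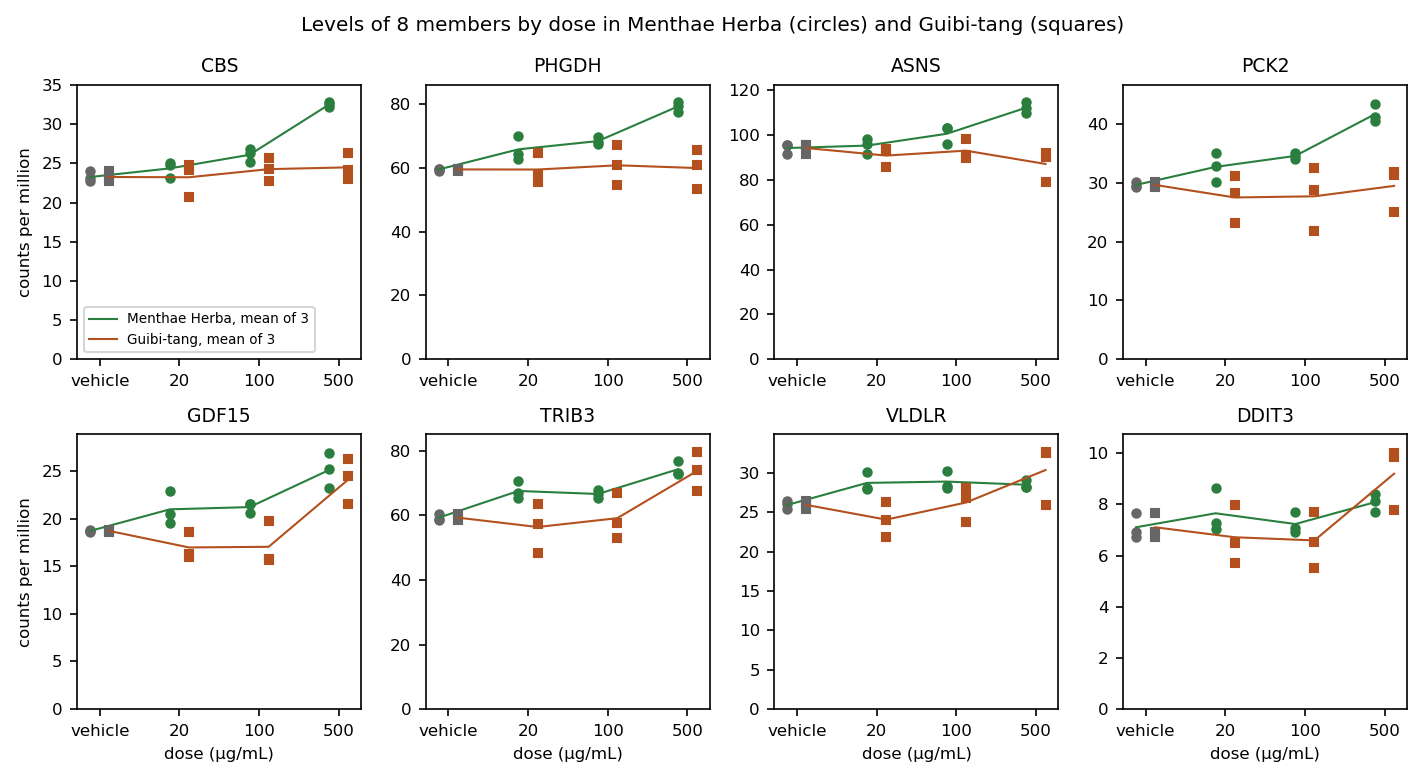
CPM of 8 genes in each library of vehicle and of Menthae Herba and Guibi-tang at 20, 100 and 500 µg/mL, with group means. CBS, PHGDH, ASNS and PCK2 are highest in Menthae Herba at 500, while GDF15 and TRIB3 are high at 500 in both extracts.

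Soshiho-tang at 500 was a single library, so its values carry no replicate check and no test. In it 36 of the 38 genes were above all 3 vehicle libraries, where 35.3% of all genes were, and 2, ATF5 and SLC3A2, were below them (37.6% of all genes). The median log2 ratio to the vehicle mean was 0.53, beside -0.01 for all genes. Above all 57 libraries of the replicated groups were 32 of the 38 genes (6.46% of all genes), the exceptions being ATF5, CEBPB, CTH, SLC3A2, SLC38A2 and SLC1A5. For CTH and SLC1A5 the counting interval reached into the vehicle range. Above all 26 libraries of replicated extracts after the step were 35 (13.6%). The library held 23028216 counts, 14.9% of them from mitochondrially encoded genes, and the Soshiho-tang 100 and 20 libraries held 14.8% and 14.3%.

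A ratio of 2 or more to the vehicle mean was reached by 8 of the 38 genes (1.79% of all genes). The intervals in this and the next paragraph are exact 95% Poisson intervals and cover counting error only. STC2 was at 68.3 CPM (64.9 to 71.7) beside 20.7 ± 1.08 in vehicle, a ratio of 3.29. TRIB3 was at 188 CPM (182 to 194) beside 59.3 ± 0.966, a ratio of 3.17. These 2 effectors had the highest ratios of the 38 genes, and STC2 was called in none of the replicated comparisons. ATF3 was at 12.4 CPM (11.0 to 13.9) beside 4.94 ± 1.12, ALDH1L2 at 58.1 CPM (55.0 to 61.3) beside 23.3 ± 0.160 and DDIT3 at 17.6 CPM (15.9 to 19.4) beside 7.10 ± 0.507, with ratios of 2.51, 2.49 and 2.48. CHAC1 was at 12.8 CPM (11.3 to 14.3) beside 5.65 ± 0.309, CBS at 48.3 CPM (45.5 to 51.2) beside 23.2 ± 0.660 and NUPR1 at 18.0 CPM (16.3 to 19.8) beside 8.60 ± 0.506, with ratios of 2.26, 2.08 and 2.09. CHAC1 and ATF3, whose windows hold the element, are among these 8 genes. TRIB3, CBS, DDIT3 and STC2 have no match in theirs.

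**Figure D4:**
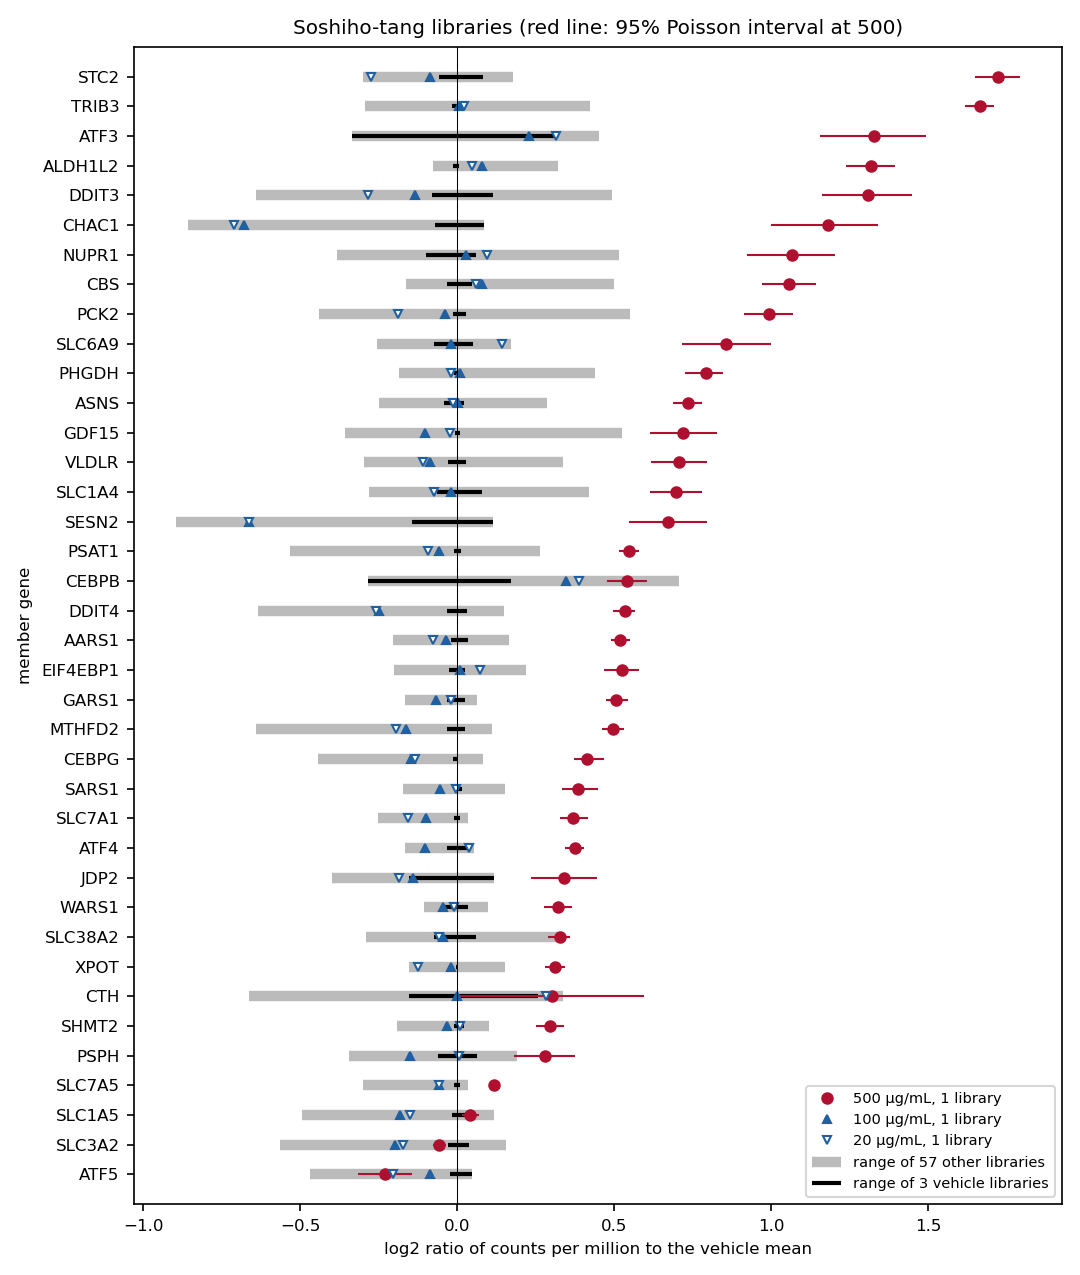
Log2 CPM ratio to the vehicle mean of each of the 38 genes in the single Soshiho-tang libraries at 500, 100 and 20, with red lines for the exact 95% Poisson interval at 500. Black bars show the range of the 3 vehicle libraries and grey bars that of all 57 libraries of the replicated groups. At 500, 32 genes lie above the grey bar, and at 100 and 20, 0 lie outside it.

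The rise touched each role. Median log2 ratios at 500 were 0.71 for the stress effectors, 0.65 for the enzymes, 0.48 for the transcription factors, 0.39 for the synthetases with XPOT and 0.32 for the transporters. ATF4 mRNA was at 344 CPM (336 to 351) beside 265 ± 6.81, a ratio of 1.29. PHGDH was at 103 CPM (98.5 to 107), ASNS at 157 CPM (152 to 162) and PCK2 at 58.9 CPM (55.8 to 62.1), with ratios of 1.72, 1.67 and 1.99. SESN2 was at 23.4 CPM (21.5 to 25.5), above the 13.3 to 15.9 CPM of vehicle, whereas it was at 9.28 CPM at both 100 and 20. The 4 smallest ratios were 0.853 for ATF5, 0.962 for SLC3A2, 1.03 for SLC1A5 and 1.09 for SLC7A5, of which the last 3 are leucine and glutamine carriers.

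The lower Soshiho-tang doses did not share this. At 100 and 20 the median log2 ratio was -0.06 and -0.06, 4 and 7 genes were above all vehicle libraries (27.2% and 27.0% of all genes), 24 and 21 below (36.3% and 36.9%), and 0 reached a ratio of 2 (0.938% and 0.997%) or lay above all 57 libraries (0.904% and 1.11%) or below them (0.655% and 0.800%). With totals that leave out mitochondrially encoded genes, 9 and 14 were above vehicle (37.6% and 35.6% of all genes) and 17 and 17 below (26.3% and 28.8%). TRIB3 was at 59.6 and 60.2 CPM, CHAC1 at 3.53 and 3.45 CPM and PHGDH at 59.9 and 58.7 CPM. Against its own 20 library, the 500 library was higher for 37 of 38 genes (51.6% of all genes), with a median log2 ratio of 0.62. These 3 libraries lie after the step, so this comparison does not cross it.

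The neighbouring parts of the pathway were read as lists. The 16 genes for eIF2, its kinases, eIF2B and the phosphatase had 0 rises at 500 in the 6 replicated extracts. Of all genes, 0.354 to 3.34% rose there. EIF2S1, the eIF2 subunit that is phosphorylated, fell in 5 of 6 extracts, by 0.14 on the log2 scale in Menthae Herba (edgeR adjusted p = 0.00722). In Soyo-san EIF2B5 (-0.19) and PPP1R15B (-0.17) fell too, so 3 of the 16 were lower, where 2.93% of all genes were. Over the 6 extracts at 500, 0.261 to 3.43% of all genes fell. Of 22 tested genes linked to ATF4 beyond the 38, Menthae Herba at 500 raised 3, where 3.34% of all genes rose and 3.43% fell. The 3 were BBC3 (0.41), KLHL24 (0.39) and the alanine aminotransferase GPT2 (0.33), and GADD45A fell (-0.32). Guibi-tang raised KLHL24 (0.47), and GADD45A fell (-0.31), where 2.63% of all genes rose and 1.78% fell. The other 16 cytosolic and the 17 mitochondrial tRNA synthetases had 0 rises at 500 in the 6 extracts, beside the same 0.354 to 3.34% of all genes. Of the cytosolic ones FARSB fell in Menthae Herba (-0.19) and Guibi-tang (-0.16), and of the mitochondrial ones MARS2 fell in Soyo-san (-0.41) and Okbyeongpung-san (-0.35). With the step term the mitochondrial list had 3 rises in Soyo-san, 2 in Saposhnikoviae Radix and 1 each in Menthae Herba and Okbyeongpung-san. The eIF2 list had 2 in Menthae Herba and 1 each in Soyo-san and Okbyeongpung-san. That fit called 11.7% of all genes, up or down, in Soyo-san, 5.80% in Saposhnikoviae Radix, 12.2% in Menthae Herba and 12.5% in Okbyeongpung-san. Of a list of 12 p53 targets, BTG2 fell at 500 in Guibi-tang (-0.57), Soyo-san (-0.60), Okbyeongpung-san (-0.60), Saengmaek-san (-0.40) and Saposhnikoviae Radix (-0.38). Of all genes, 0.261 to 2.93% fell in these extracts at 500. At 20, against the same 3 vehicle libraries, BTG2 also fell (-0.61, -0.65, -0.61, -0.49 and -0.48 in the same order). MDM2 fell in Soyo-san (-0.21) and Okbyeongpung-san (-0.22) at 500, and also at 20 (-0.21 and -0.28). CDKN1A fell in Soyo-san (-0.18) and GADD45A also in Saposhnikoviae Radix (-0.34), both at 500.

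Chaperones of the endoplasmic reticulum, which the unfolded protein response raises, were called most often in Guibi-tang among the 6 extracts. At 500 it raised 10 of 15 against vehicle, among them the co-chaperone DNAJB9 (0.35, adjusted p = 0.00688), the secreted factor MANF (0.33, adjusted p = 0.00658) and the lectin chaperone CALR (0.24, adjusted p = 0.00412), with a median of 0.19, where 2.63% of all genes rose. Okbyeongpung-san raised 5 (1.96% of all genes), Soyo-san 4 (3.11%), Saposhnikoviae Radix 1 (0.921%) and Saengmaek-san and Menthae Herba 0 (0.354% and 3.34%). Whether these counts differ between extracts was not tested, and 0 of 15 were called between 500 and 20 in Guibi-tang. In the Soshiho-tang 500 library 14 of 15 were above all vehicle libraries (35.3% of all genes), with a median log2 ratio of 0.35. HERPUD1, of the degradation pathway, was at 65.0 CPM beside 37.4 ± 1.09 in vehicle and HSPA5, the main chaperone, at 862 CPM beside 615 ± 4.27. In the same library 13 of the 22 further ATF4-linked genes were above all 57 libraries (6.46% of all genes), led by the peptide hormone ADM2 (5.73 CPM beside 1.54 ± 0.162) and NIBAN1 (16.4 CPM beside 5.93 ± 0.258). PPP1R15A, the stress-induced partner of the eIF2 phosphatase, was at 61.2 CPM beside 32.9 ± 1.79. The cytosolic synthetases outside the 38 had a median log2 ratio of 0.08 there and the mitochondrial ones -0.07.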

How the data were processed

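Rounded RSEM expected counts were analysed in 60 A549 libraries. The authors deposited expected counts for 60675 genes; per the submitters' processing notes, FastQC 0.11.9, Trim Galore 0.6.5, STAR 2.7.3a and RSEM 1.3.3 were used on hg38, also called GRCh38. For the annotation release and the strand setting the entry is: not given in the sources used here. Reads of a gene and of an antisense partner may be shared. Of all values, 10.5% were not whole and were rounded. Symbols came from a current gene table (56558 genes) or GENCODE 29 (497 genes), and 3620 genes without a symbol stayed in the fit. Ethanol extracts and a 10 µM wortmannin control, named in the series description, are not analysed here.

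Genes were kept by filterByExpr by group, and 57 libraries (19 groups of 3) entered a single quasi-likelihood model in edgeR 4.0.16 with TMM factors of 0.884 to 1.06 and 38 residual degrees of freedom, run in R 4.3.3 with limma 3.58.1. Fold changes are log2 from this fit with standard errors, adjusted by Benjamini-Hochberg over 17256 genes within each of 24 comparisons, and CPM are counts scaled to a library total of 1000000, as mean ± SD. Soshiho-tang, with 1 library a dose, was described by ratios to the vehicle mean. The difference between extracts was tested jointly and in 15 pairs. Simulated counts for 17102 genes gave 94% recovery at a log2 change of 0.5 for Menthae Herba 500 against vehicle and 92% for 500 against 20. Among unchanged genes, 5 and 13 were called. The changed genes were drawn above a CPM floor, with a shared mean for all groups and no step. Changes under 0.5 were not simulated, so the recovery does not cover smaller changes or scarce transcripts. Promoter windows are from RefSeq, and shares carry exact Clopper-Pearson intervals.

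In each comparison at 500, the called genes were named, at most the 6 with the largest change, and TRIB3, CHAC1 and PHGDH were followed in every group. Library values are given for the genes called most often at 500. ATF4, ATF5, DDIT3, ALDH1L2, SLC38A2, SLC1A5 and AARS1 were given in more detail after their values were seen. The members and gene lists were chosen with earlier results of these data known. Alternatives were DESeq2 1.42.0, no filter on low counts, the replicate number as a block, a step term, 2 groups alone, no mitochondrially encoded genes, and leaving out each library. The restriction to libraries on 1 side of the step, and to the 26 libraries after it for Soshiho-tang, was chosen after the data were seen.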

Additional observations from a re-analysis of the deposited data

Results flagged for a closer look

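The change from 20 to 500 differed among the 6 replicated extracts for 2 of the 38 genes in a joint edgeR test: ASNS (adjusted p = 0.0116) and CBS (adjusted p = 0.0310). The ASNS call was lost in 2 of 57 fits that each left out 1 library, with an adjusted p of up to 0.0592, and the CBS call in 7, with an adjusted p of up to 0.179. Without the filter on low counts the ASNS call was also lost (adjusted p = 0.0612), that of CBS was kept (0.0201) and CEBPB was called (0.00604). Between pairs of extracts, the change was larger in Menthae Herba than in Guibi-tang for ASNS by 0.35, for CBS by 0.39 and for PHGDH by 0.31 on the log2 scale. It was larger than in Saengmaek-san for CBS by 0.39 and for SLC1A4 by 0.32, and larger than in Okbyeongpung-san for CBS by 0.36. All Menthae Herba libraries lie before the step in the library order and all Okbyeongpung-san libraries after it, while Guibi-tang and Saengmaek-san lie on both sides. With a step term, 5 genes differed in the joint test (1.66% of all genes): ASNS (adjusted p = 0.00570), CBS (0.0185), PHGDH (0.0114), PSAT1 (0.0132) and SLC1A4 (0.0381).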

How the results depend on the processing

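Numbers of called genes for 500 against vehicle are given for Menthae Herba, then Saposhnikoviae Radix, then the mixtures Saengmaek-san, Guibi-tang, Soyo-san and, at the end, Okbyeongpung-san, with 10, 2, 4, 8, 7 and 3 as reported. A step term gave 17, 8, 7, 16, 16 and 14, where 12.2, 5.80, 2.18, 10.0, 11.7 and 12.5% of all genes were called. A fit of the 2 groups alone gave 21, 13, 0, 4, 13 and 12. Libraries before the step alone gave 21 in Menthae Herba, 8 in Saposhnikoviae Radix and 16 in Guibi-tang. DESeq2 gave 5 and no filter on low counts 6 in Okbyeongpung-san. For 500 against 20, Menthae Herba (5) had 8 with the step term, 10 with 2 groups alone and 9 with libraries before the step, and Guibi-tang (3) had 0 with 2 groups alone. The 12 calls summed at 100 became 27 without the filter, 34 with the step term and 23 with 2 groups alone. The 10 at 20 became 19 with DESeq2, 28 without the filter, 37 with the step term and 32 with 2 groups alone. The joint test called 5 genes with the step term. Set beside the 26 libraries after the step, Soshiho-tang had 1 gene above their range at 100 (4.16% of all genes) and 1 at 20 (4.04%). Below it were 0 and 0 (1.72% and 1.63%). Outside vehicle were 28 and 28, with 27.2% and 27.0% of all genes above and 36.3% and 36.9% below. A range of 26 libraries is usually wider than one of 3, so these counts are not alike. The cause of these shifts was not tested.

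Leaving out 1 library gave 7 to 10, 0 to 2, 0 to 3, 5 to 9, 3 to 6 and 2 to 3 calls against vehicle. Against 20 it gave 3 to 5 in Menthae Herba, 1 to 4 in Guibi-tang and 0 to 0 in the other 4. It gave 1 to 13 calls summed at 100, 4 to 13 at 20, and 0 to 3 in the joint test.

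Of 70 reported gene values, 1 reversed: DDIT4 in Soyo-san, which was 0.00 with the step term. DESeq2 and leaving out mitochondrially encoded genes kept 70 of 70 on the same side of the threshold, the step term 60, 2 groups alone 55 and no filter 63. Over the fits that left out 1 library, 343 of 420 kept it. Same-numbered replicates deviated together (every correlation over 0.1) in 1 of 24 comparisons, so the numbers were not taken to pair the libraries, and with the replicate number as a block none of the 70 gene values changed side. Under the block Menthae Herba at 500 against vehicle had 10 calls, Saposhnikoviae Radix 3 in place of 2 and Soyo-san 8 in place of 7, and at lower doses Menthae Herba at 100 had 2 in place of 1, Guibi-tang at 20 had 3 in place of 2 and Okbyeongpung-san at 20 had 3 in place of 1. With the bases before the start alone, the element stood in windows of 8 of 33 of the members (24.2%, 11.1 to 42.3%) and of 3.89% of all genes. Groups had 3 libraries, with as few as 54 counts for a gene in a library. Small changes of scarce transcripts such as CTH and ATF3 were not resolved, nor were CHAC1 changes smaller than those called. Soshiho-tang has no replicate.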
